A study of Mus musculus with 8 samples.

Results

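The subunits of the oxidative phosphorylation system were examined in ventricles of mouse hearts at E15.5, in embryos that overproduce neuregulin-1 and in wild-type (WT) embryos. Members were chosen by symbol (mitochondrially encoded *mt-Nd*, *mt-Co*, *mt-Cytb* and *mt-Atp* genes, and nuclear *Nduf* genes of the numbered A, B, C, S and V series, *Sdh*, *Uqcr*, *Cyc1*, *Cox4* to *Cox8* and *Atp5* genes, without pseudogene symbols) and by a level of at least 10 counts in at least 4 of 8 libraries. The table lists 53465 genes, of which 102 matched by symbol and 98 were members, 85 encoded in the nucleus and 13 in the mitochondrion. The genotype called *Nrg1GOF* here carries an *Nrg1* transgene at the Rosa26 locus and a Cre driver that the series title names Nkx2.5-Cre and the genotype label writes as Nkx5.5-Cre, while the WT label gives no allele. Cre activity is limited to the *Nkx2.5* lineage, which holds the cardiomyocytes and some other cells of the heart. Each group has 4 libraries of poly(A) RNA, and each library came from 1 ventricle sample. Nothing in the labels says whether embryos share a litter, so p-values measure the spread between these samples.

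Oxidative phosphorylation passes electrons from NADH and succinate through complexes I to IV of the inner mitochondrial membrane to oxygen, and complex V, the ATP synthase, uses the resulting proton gradient to make ATP. Complex II is encoded by nuclear genes alone, whereas the other complexes join nuclear subunits to a core that is partly encoded by mitochondrial DNA, so assembly depends on both genomes. The heart relies on this system for most of its ATP after birth, and mitochondria of ventricular cardiomyocytes mature during fetal life.

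The promoters of the nuclear members were searched for 4 short motifs of factors known to act on respiratory genes, on both strands, from 250 bases before to 50 bases after the annotated start. RefSeq promoters (GRCm38.p6) were at hand for 67 of the 85 nuclear members, with 72 promoters among them. GCATGCGC, a core of the NRF1 motif, was in 13.9% of these promoters and in 2.71% of all 32851 promoters of the table. CCGGAAG, bound by ETS factors such as GABPA, was in 22.2% against 8.86%. AAGATGGCG, bound by YY1, was in 9.72% against 1.4%, and TCAAGGTCA, bound by estrogen-related receptors (ERR), was in 2.78% against 0.423%. A NRF1 match can overlap its own reverse complement, the ETS letters end as the YY1 letters begin, and a promoter can hold several motifs. The windows printed here hold 1 match each for the ERR, NRF1 and ETS motifs and overlap no annotated exon. The first belongs to a gene that was lower in *Nrg1GOF* and the others to genes that did not pass the test. Capitals mark the match, and the sequences read 5′ to 3′ on the strand of the gene.
*Atp5g3*, chr2:73911330-73911418, minus strand: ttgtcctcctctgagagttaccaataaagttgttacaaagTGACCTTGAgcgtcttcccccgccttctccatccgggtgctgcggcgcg
*Ndufa6*, chr15:82354327-82354414, minus strand: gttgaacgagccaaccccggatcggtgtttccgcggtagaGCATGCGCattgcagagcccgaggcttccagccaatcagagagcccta
*Uqcr11*, chr10:80406841-80406927, minus strand: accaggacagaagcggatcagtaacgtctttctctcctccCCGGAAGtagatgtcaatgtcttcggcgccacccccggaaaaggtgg

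The match in *Atp5g3*, a gene for the c subunit of the ATP synthase, lies 52 to 44 bases before the start on the opposite strand, and that in *Ndufa6*, an accessory subunit of complex I named for its window after its values were seen, 83 to 76 bases before it. The match in *Uqcr11*, a small subunit of complex III, lies 66 to 60 bases before the start. Of 28 genes with at least 1 of the 4 motifs, 7 were lower in *Nrg1GOF* (median log2 fold change -0.24). Of 39 genes with none, 17 were lower (median -0.26), and of all tested genes 12.8%. Without *Nrg1GOF* library 4, which stood apart as described below, the counts with and without a motif were 20 and 30. The share of all tested genes was then 11.6%. The count without a motif was 11 without *Nrg1GOF* library 2 or WT library 1 and 10 without WT library 4. Lower were 3 of 10 genes with the NRF1 motif, 3 of 16 with ETS and 2 of 7 with YY1. Both genes with the ERR motif, *Atp5g3* and *Sdhd*, were among the lower ones, a count too small to set apart from the others. A match is a description of the letters, not of binding.

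Library totals ranged from 8038641 counts in *Nrg1GOF* library 4 to 26786039 in WT library 1, and the floor of 3 counts was 0.112 to 0.373 counts-per-million of the library total. CPM denotes counts-per-million after scaling by the trimmed mean of M-values (TMM). *Nrg1GOF* library 4 stood apart in depth from the other *Nrg1GOF* libraries, which held 20578081 to 22547833 counts. WT libraries 1 and 2 (correlation across genes 0.989) and WT libraries 3 and 4 (0.991) were closer to each other than to the other WT pair (0.98), so results are also given without *Nrg1GOF* library 4 and against each WT pair. *Nrg1*, the targeted gene, measured 60.7, 59.7, 63.7 and 63.1 CPM in *Nrg1GOF* and 4.17, 4.42, 3.07 and 4.47 CPM in WT, in the order of the library numbers (log2 fold change 3.94, SE 0.10, adjusted p = 8.26e-08). The groups did not overlap, in the direction of the labels. Here and throughout, fold changes are *Nrg1GOF* over WT, the test is the quasi-likelihood test of edgeR with Benjamini-Hochberg adjustment over all 15580 tested genes, SE is the standard error of the log2 fold change, n is 4 per group, and genes whose adjusted p is below 0.05 are termed called. Library values are listed for libraries 1 to 4 of *Nrg1GOF*, then 1 to 4 of WT.

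Subunit genes of both genomes were lower in *Nrg1GOF* than in WT. Of the 13 mitochondrial members 10 fell, none rose, and all 13 had a negative log2 fold change, with a median of -0.48 and a range from -0.65 to -0.30. Among the 85 nuclear members 31 fell, 1 rose and 53 did not pass the test, and 81 had a negative log2 fold change, with a median of -0.26 and a range from -0.49 to 0.44. Over all tested genes 12.8% were called lower and 15.9% higher, and the median log2 fold change was -0.01, so the called share was above the background in both classes. No overlap between the groups, with *Nrg1GOF* lower, was seen in 7 of 13 mitochondrial and 26 of 85 nuclear members, against 14.1% of all tested genes. Members of a class need not vary independently, and on the mitochondrial DNA *mt-Atp8* overlaps *mt-Atp6* and *mt-Nd4l* overlaps *mt-Nd4*. These are bulk samples, in which fewer cells of a type and less RNA per cell cannot be told apart.

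The summed level of the nuclear members was 18313, 19293, 16368 and 22097 CPM in *Nrg1GOF* and 24273, 23097, 23288 and 24557 CPM in WT. The means were 19018 ± 2386 and 23804 ± 720 CPM (SD, n = 4), and the groups did not overlap, with *Nrg1GOF* library 4 nearest to WT. For the mitochondrial members the sums were 35856, 29260, 40563 and 32617 CPM against 42437, 44289, 55920 and 56068 CPM, with means of 34574 ± 4816 and 49678 ± 7332 CPM. The groups again did not overlap, although *Nrg1GOF* library 3 came close to WT library 1. As a percentage of each library's counts, without TMM scaling, the mitochondrial members took 3.60%, 2.99%, 4.21% and 3.25% in *Nrg1GOF* and 4.15%, 4.33%, 5.55% and 5.56% in WT, and here *Nrg1GOF* library 3 was above WT library 1. The nuclear members took 1.84%, 1.97%, 1.70% and 2.20% against 2.37%, 2.26%, 2.31% and 2.43%, without overlap. In log2 units the ratio of group means was -0.32 for the nuclear and -0.52 for the mitochondrial sum. The mitochondrial sum divided by the nuclear sum was 1.96, 1.52, 2.48 and 1.48 in *Nrg1GOF* and 1.75, 1.92, 2.40 and 2.28 in WT. These ratios overlapped, so the data do not separate the genotypes by the balance of the 2 genomes at this number of libraries.

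**Figure D1:**
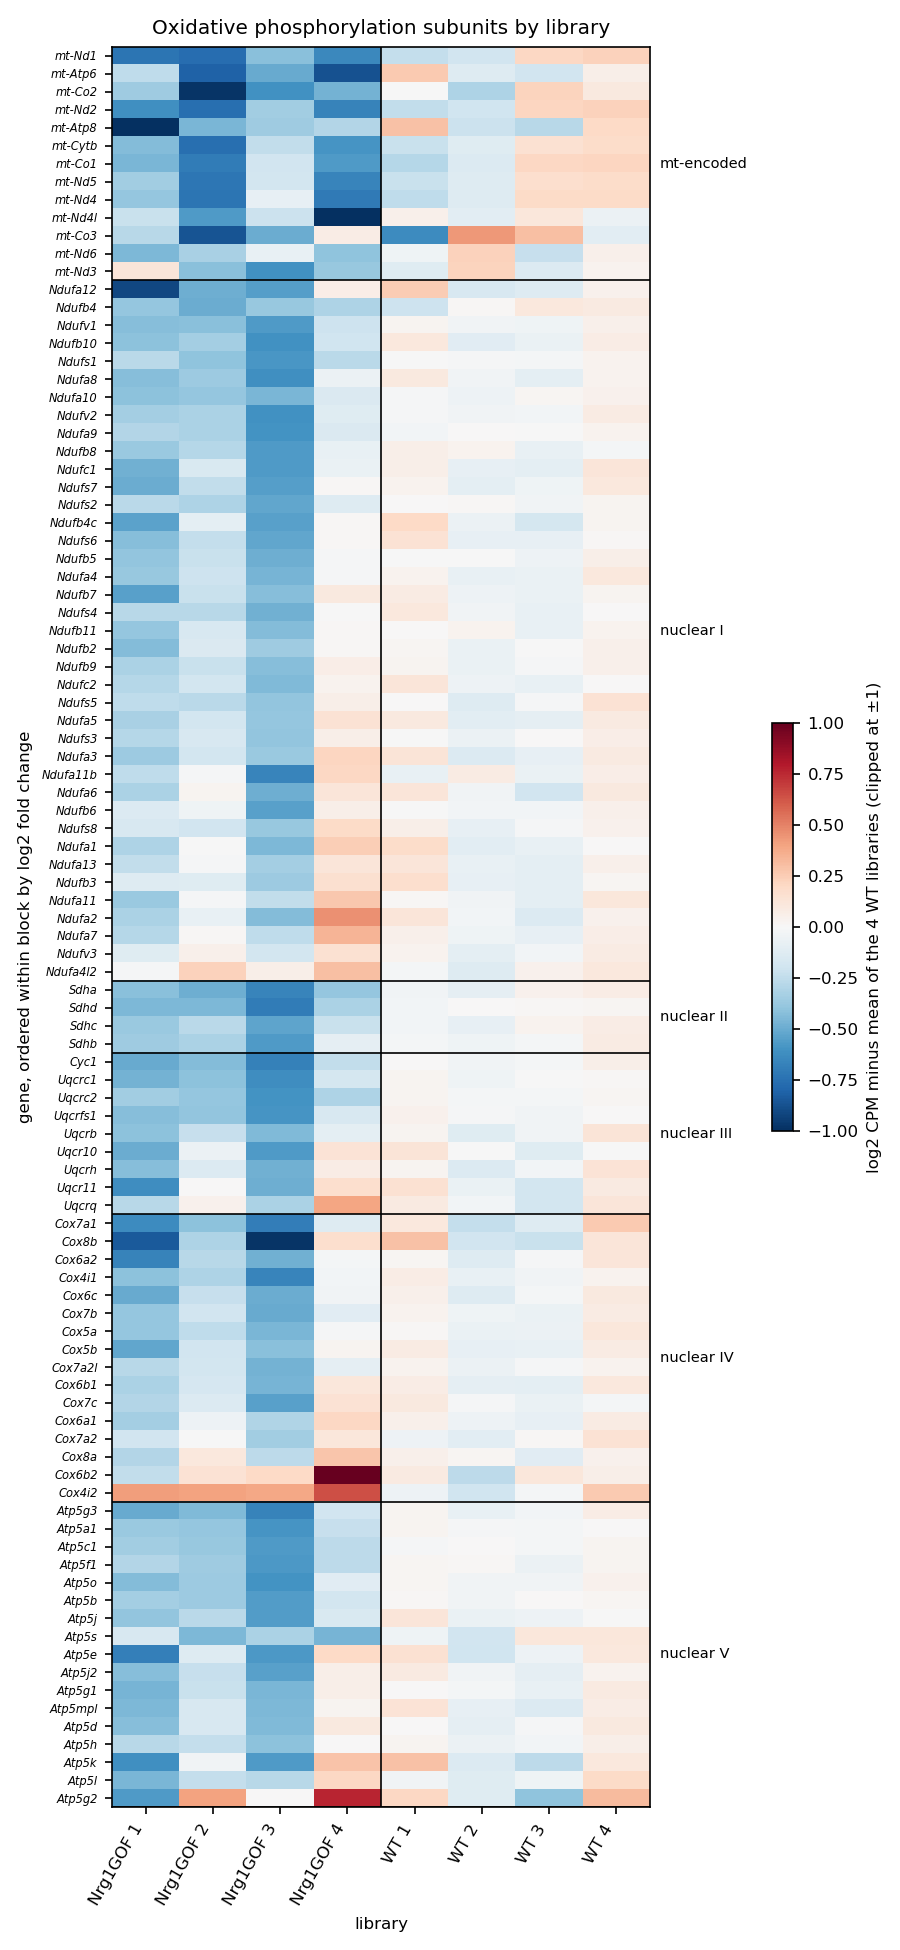
Level of each of the 98 subunit genes (rows) in each of the 8 libraries (columns), as log2 CPM minus the mean of the 4 WT libraries, with blue below and red above that mean. Most nuclear rows are blue in *Nrg1GOF* libraries 1 to 3 and near white in library 4, while 12 of 13 mitochondrial rows, all but *mt-Co3*, are below the WT mean in library 4 as well.

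The libraries of *Nrg1GOF* differed in which genome was lowest. *Nrg1GOF* library 4 was the highest of its group in 83 of 85 nuclear members, and its median over them lay 0.02 above the WT mean in log2 CPM, against -0.38, -0.23 and -0.49 in libraries 1 to 3. Library 3 was the lowest of its group in 65 nuclear members but the highest in 8 of 13 mitochondrial members, and library 2 was the lowest in 8 mitochondrial members. Medians over the mitochondrial members were -0.39, -0.73, -0.34 and -0.59 in *Nrg1GOF*, so library 4, which was near WT in nuclear members, was well below it in mitochondrial ones. In WT they were -0.22, -0.13, 0.17 and 0.18, lower in libraries 1 and 2 than in libraries 3 and 4, and a difference of this kind was not seen in the nuclear members (0.03, -0.06, -0.05 and 0.06).

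Leaving out *Nrg1GOF* library 4 raised the number of called nuclear members from 32 to 62, of which 30 were called with it as well, and moved their median to -0.35, while 11.6% of all genes tested were then called lower. The same step lowered the mitochondrial count from 10 to 6. Without *Nrg1GOF* library 2, or without WT library 4, 5 mitochondrial members were called. Against WT libraries 1 and 2 alone, 17 nuclear and 4 mitochondrial members were called, with 8.13% of all genes called lower, and against WT libraries 3 and 4 alone 22 and 8, with 11.6%. With libraries thinned to equal depth, 30 nuclear and 9 mitochondrial members were called and their medians were -0.26 and -0.48. The mitochondrial median was -0.37 against the first pair and -0.63 against the second, and the median of neither genome changed sign under any alternative that was run.

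Markers of cell types moved with the genotype. Of 10 ventricular and pan-cardiac cardiomyocyte markers 5 fell and none rose (median log2 fold change -0.32). By edgeR 1 was higher at an unadjusted p under 0.05, *Myh6* (0.51, SE 0.21, adjusted p = 0.105, named after its value was seen), and DESeq2, the likelihood ratio test and limma-voom called 0 higher. The summed level of the 10 markers was 41948, 39807, 37491 and 44552 CPM in *Nrg1GOF* and 47277 to 50510 CPM in WT. Epicardial and fibroblast markers summed to 6561, 6875, 7694 and 6301 CPM in *Nrg1GOF* against 3332 to 4565 CPM in WT (7 of 8 higher, 1 lower). Within *Nrg1GOF*, library 4 thus had the highest cardiomyocyte sum, the lowest epicardial and fibroblast sum and the highest sum of nuclear subunits, and library 3 the reverse of each. The sum of mitochondrial subunits did not follow this order, being highest in library 3 at 40563 CPM, against 32617 CPM in library 4. Sums were higher in *Nrg1GOF* for endothelial and endocardial markers (1299 to 1424 against 1191 to 1215 CPM, 5 of 8 genes higher), atrial markers (1718 to 1884 against 1047 to 1190 CPM, 5 of 8) and macrophage markers (96.8 to 114 against 51.4 to 62.8 CPM, 8 of 8). Red blood cell markers overlapped, at 5454 to 8922 against 4433 to 13063 CPM, with none of 11 called by edgeR (1 at an unadjusted p under 0.05, and 1 called by limma-voom), and within WT they summed to 13063 and 12218 CPM in libraries 1 and 2 and to 5522 and 4433 CPM in libraries 3 and 4. No marker was at 0 in every library, and cardiomyocyte markers had the highest sum in each library. The part of these markers in the subunit results was not tested.

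Among the mitochondrial genes of complex I, *mt-Nd1* (MT:2751-3707), which encodes a core membrane subunit, measured 3689, 3609, 4574 and 3904 CPM in *Nrg1GOF* and 5172, 5341, 7037 and 7157 CPM in WT. Every *Nrg1GOF* library was below every WT library, and the log2 fold change of -0.65 (SE 0.12, adjusted p = 0.00376) was the lowest of the 98 members. *mt-Nd2*, another core subunit, fell to a like degree (-0.60, SE 0.13, adjusted p = 0.00685) without overlap. *mt-Nd5* (-0.47, adjusted p = 0.0271), *mt-Nd4l* (-0.46, adjusted p = 0.0433) and *mt-Nd4* (-0.46, adjusted p = 0.0499) also fell, and in *mt-Nd4* and *mt-Nd5* the groups overlapped because *Nrg1GOF* library 3 reached into the WT range. *mt-Nd6* (MT:13552-14070), a core subunit, is the only mitochondrial member on the minus strand. It had the lowest level per length of the 13 in these poly(A) libraries, which need not be its abundance in the cell. Its values were 33.3, 36.4, 43.3 and 34.5 CPM in *Nrg1GOF* and 44.1, 53.3, 38.7 and 47.1 CPM in WT, which overlapped through *Nrg1GOF* library 3 and WT library 3 (-0.31, SE 0.11, adjusted p = 0.0629). It overlaps *mt-Nd5*, which ends at MT:13565, by a short stretch. The libraries were directional, but the strand setting of the counting is not given in the sources used here. How reads were assigned between the strands is therefore not known.

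*mt-Cytb*, the cytochrome b of complex III, measured 4850, 3875, 5508 and 4345 CPM in *Nrg1GOF* and 5615, 6018, 7266 and 7445 CPM in WT. It fell by 0.50 on the log2 scale (SE 0.12, adjusted p = 0.0130), and the groups did not overlap. *mt-Co1*, the catalytic subunit of complex IV, measured 12856, 10848, 15390 and 11873 CPM against 14455, 16049, 20333 and 20439 CPM. It fell by 0.48 (SE 0.14, adjusted p = 0.0247), with *Nrg1GOF* library 3 above WT library 1. *mt-Co2*, which accepts electrons from cytochrome c, fell by 0.60 (SE 0.14, adjusted p = 0.0113) without overlap. For the ATP synthase, *mt-Atp6* fell by 0.60 (SE 0.15, adjusted p = 0.0126) and *mt-Atp8* by 0.53 (SE 0.17, adjusted p = 0.0460), both without overlap. Calls of *mt-Nd1*, *mt-Nd2*, *mt-Cytb*, *mt-Co2* and *mt-Atp6* remained without any 1 library. Each of the other 5 calls was lost when any 1 of at least 4 libraries was left out, *Nrg1GOF* library 2 and WT library 4 among them in each case, with adjusted p-values from 0.0519 to 0.141.

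Several mitochondrial genes have nuclear copies that are annotated as pseudogenes and nearly or wholly identical in sequence, and the expected counts of RSEM divide a read between such genes by estimated abundance. The deposited count of *mt-Co3*, a core subunit of complex IV, was 3.81% to 8.40% of the sum of *mt-Co3* and its copy *Gm28437*, which is identical over its whole length. The shares were 9.68% to 14.4% for *mt-Atp6* with *Gm10925*, 44.0% to 70.8% for *mt-Nd3* with *Gm28438*, 33.6% to 70.2% for *mt-Nd4l* with *Gm10222*, 67.2% to 69.9% for *mt-Nd4* with *Gm28439* and 67.5% to 99.9% for *mt-Co2*, mostly with *Gm28661*. How the reads were divided thus varied between libraries of 1 group.

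As deposited, *mt-Co3* measured 348, 231, 299 and 443 CPM in *Nrg1GOF* and 272, 569, 519 and 391 CPM in WT, and did not pass the test (-0.41, SE 0.24, adjusted p = 0.245). With the counts of its copy added it measured 5339, 4962, 5554 and 5273 CPM against 7132, 7388, 7777 and 7801 CPM. The groups then lay far apart, at 5282 ± 245 and 7524 ± 323 CPM (SD, n = 4), and the gene was lower in *Nrg1GOF* (-0.51, SE 0.06, adjusted p = 0.000187). *mt-Nd3*, a small core subunit of complex I, went from -0.30 (SE 0.15, adjusted p = 0.160) to -0.37 (SE 0.06, adjusted p = 0.00125), with 574, 625, 554 and 640 CPM against 779, 770, 754 and 789 CPM after addition. *mt-Atp6* kept its direction with a smaller error (-0.63, SE 0.08, adjusted p = 0.000415). For *mt-Nd4l* the groups, apart as deposited, overlapped after addition, at 178, 200, 308 and 216 CPM against 294, 275, 328 and 377 CPM, and the gene was still called lower (-0.50, SE 0.16, adjusted p = 0.0436). With copies added, 12 of 13 mitochondrial members were lower, *mt-Nd6* being the exception, and the median was -0.50. The sum of the mitochondrial members and their copies was 47695, 41165, 55694 and 44509 CPM in *Nrg1GOF* and 58863, 62480, 75330 and 76484 CPM in WT. As a percentage of counts, this sum too overlapped, at 5.78% in *Nrg1GOF* library 3 and 5.75% in WT library 1.

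**Figure D2:**
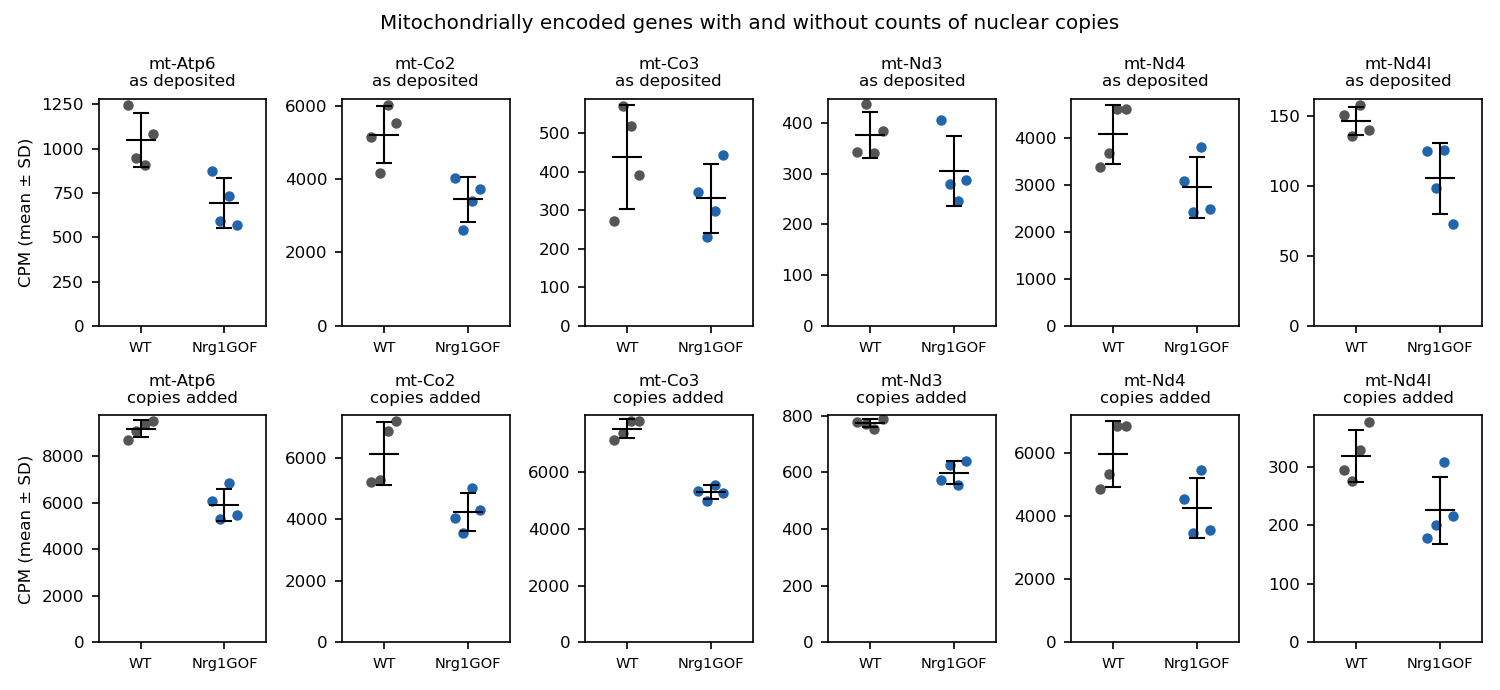
CPM per library (points) with mean ± SD (bars, n = 4) for the 6 mitochondrial genes that share counts with near-identical nuclear copies, as deposited (upper row) and with the counts of the copies added (lower row). For *mt-Co3* and *mt-Nd3* the groups overlap in the upper row and are apart in the lower row, where *mt-Co3* means are 5282 and 7524 CPM, while for *mt-Nd4l* they are apart in the upper row and overlap in the lower.

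Levels per length can be compared between genes. In WT, *mt-Co1* had the highest mean of the 98 members as deposited, at 11533 CPM per kilobase of transcript, followed by *mt-Co2* at 7622 and *mt-Nd1* at 6454, whereas *mt-Nd6* was at 88.3. With copies added the order turned, with *mt-Atp6* at 13463 CPM per kilobase, *mt-Co1* at 11535, *mt-Co3* at 9597 and *mt-Co2* at 8985. The highest nuclear member was *Atp5b*, the catalytic beta subunit of the ATP synthase, at 2016 CPM per kilobase, which is named for this level after it was seen. *Atp5g3* and *Atp5a1* (the alpha subunit) followed among the nuclear genes at 1146 and 1081 CPM per kilobase. Poly(A) selection can weigh mitochondrial and nuclear transcripts differently.

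Complex II, succinate dehydrogenase, also belongs to the tricarboxylic acid (TCA) cycle. It was lower as a whole: 4 of 4 members fell (median log2 fold change -0.41), against 12.8% of all tested genes. In 4 of 4 the groups did not overlap, against 14.1% of all tested genes with *Nrg1GOF* lower. *Sdha* (chr13:74322254-74350280), the flavoprotein that oxidises succinate, measured 603, 575, 509 and 616 CPM in *Nrg1GOF* and 787, 759, 832 and 848 CPM in WT. Its fold change of -0.49 (SE 0.07, adjusted p = 0.000799) was the lowest of the nuclear members. *Sdhd*, a membrane anchor, measured 243, 242, 204 and 266 CPM against 325, 331, 333 and 335 CPM (-0.47, SE 0.07, adjusted p = 0.00126). In both genes *Nrg1GOF* library 4, which was near WT for many nuclear members, stayed clear of the WT libraries. *Sdhc*, the other anchor, fell by 0.35 (SE 0.07, adjusted p = 0.00554) and *Sdhb*, the iron-sulfur subunit, by 0.32 (SE 0.09, adjusted p = 0.0235). The call of *Sdhb* was lost without *Nrg1GOF* library 1, *Nrg1GOF* library 2 or WT library 4, with adjusted p-values from 0.0592 to 0.0641. The sum of the 4 genes was 1320, 1317, 1131 and 1430 CPM in *Nrg1GOF* and 1713, 1676, 1779 and 1827 CPM in WT. Nuclear sums of complexes III and V did not overlap between the groups either, while those of I and IV did.

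**Figure D3:**
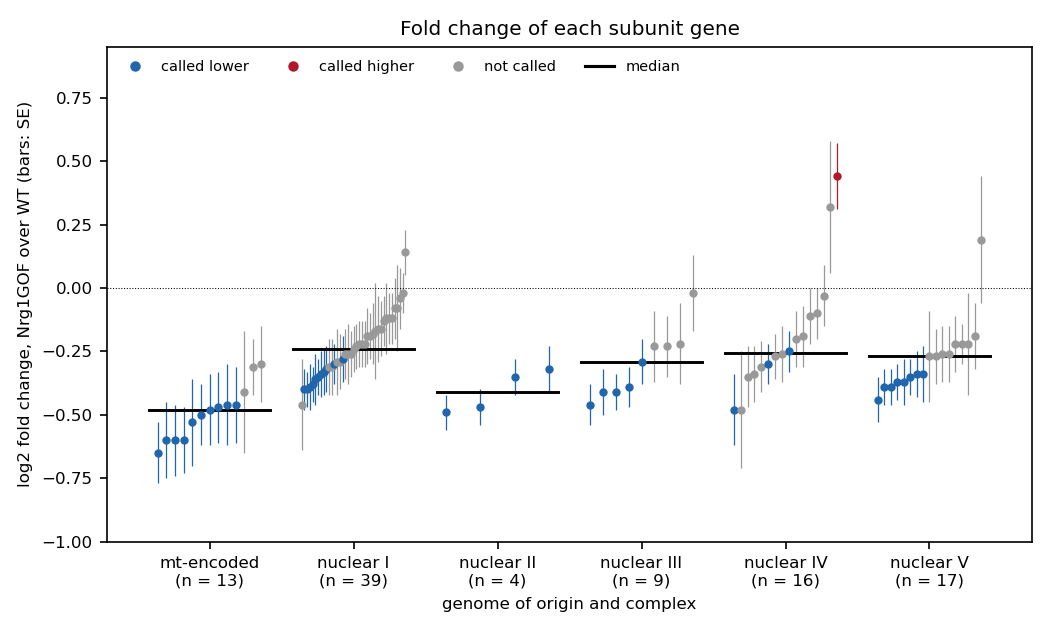
Log2 fold change of each subunit gene, *Nrg1GOF* over WT (points, bars give the SE), for mitochondrially encoded genes and for the nuclear genes of each complex, with the median of each block as a line. All 4 complex II genes are called lower, and *Cox4i2*, at 0.44, is the 1 gene called higher.

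Complex III passes electrons from ubiquinol to cytochrome c. It had 6 of 10 members lower, 5 of them among 9 nuclear ones (nuclear median -0.29), against 12.8% of all tested genes. The nuclear genes of its 2 catalytic subunits fell, as did the genes of its 2 core proteins, whereas 1 of 5 small subunits did (2 without *Nrg1GOF* library 4, and 0 without any 1 of the other *Nrg1GOF* libraries, WT library 1 or WT library 4). *Cyc1*, cytochrome c1, measured 340, 357, 302 and 407 CPM in *Nrg1GOF* and 482, 469, 476 and 501 CPM in WT. It fell by 0.46 (SE 0.08, adjusted p = 0.00267), without overlap. The core proteins *Uqcrc1* (-0.41, SE 0.09, adjusted p = 0.00561) and *Uqcrc2* (-0.41, SE 0.07, adjusted p = 0.00154) fell to the same degree. The small subunits *Uqcr10* (-0.23, SE 0.14), *Uqcr11* (-0.22, SE 0.16) and *Uqcrq* (-0.02, SE 0.15) did not pass the test, with adjusted p-values of 0.274, 0.367 and 0.933. *Uqcrq* measured 104, 130, 101 and 166 CPM against 134, 124, 111 and 137 CPM, so *Nrg1GOF* library 4 was above all WT libraries and libraries 1 and 3 were below them.

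Complex I, the NADH dehydrogenase, had 16 of 46 members lower, 11 of them among 39 nuclear ones (nuclear median -0.24). Of all tested genes 12.8% were called lower, and 11.6% without *Nrg1GOF* library 4. Of the 7 nuclear core subunits, most of which carry flavin or iron-sulfur centres, 4 fell, and of the 32 other nuclear genes placed in the complex by symbol 7 did. Those 32 hold 2 processed pseudogenes as well as *Ndufa4* and *Ndufa4l2*, none of which was called, and without them 7 of 28 genes fell. Without *Nrg1GOF* library 4, 7 of the 7 core subunits and 20 of the 32 other genes were called lower, and the latter count was 4 without *Nrg1GOF* library 1 or 2 or WT library 1 or 4. *Ndufv1*, the core subunit that binds NADH, measured 264, 266, 239 and 307 CPM in *Nrg1GOF* and 361, 346, 345 and 367 CPM in WT. The groups did not overlap (-0.40, SE 0.07, adjusted p = 0.00287). *Ndufb4*, an accessory subunit, measured 22.1, 20.5, 22.2 and 23.3 CPM against 25.1, 29.1, 31.1 and 30.7 CPM and fell by 0.40 (SE 0.08, adjusted p = 0.00480), and here *Nrg1GOF* library 4 was below all WT libraries like the others. *Ndufa12*, also accessory, had the lowest nuclear fold change of the complex (-0.46, SE 0.18) but did not pass the test (adjusted p = 0.0821), and shares counts with a pseudogene, its own share being 57.6% to 77.8%. With that copy added it was at -0.30 (SE 0.13, adjusted p = 0.104). *Ndufa7* (-0.04, SE 0.12), *Ndufv3* (-0.02, SE 0.08) and *Ndufa4l2* (0.14, SE 0.09) had the highest fold changes of the complex, and none was called. The count for the complex rested on single libraries, being 9 without *Nrg1GOF* library 2, 9 without WT library 4 and 30 without *Nrg1GOF* library 4.

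Complex IV, cytochrome c oxidase, had 5 of 19 members lower and 1 higher, with 3 lower and 1 higher among 16 nuclear members (nuclear median -0.26). The called lower share of its nuclear members, 18.8%, was near the 12.8% of all tested genes. The nuclear genes that fell were *Cox7a1*, a heart and muscle isoform, *Cox7b* (-0.30, SE 0.08, adjusted p = 0.0250) and *Cox7a2l* (-0.25, SE 0.08, adjusted p = 0.0345), a factor that joins complexes III and IV. The last 2 are named because they complete this count, after their values were seen, and their calls were lost without any 1 of 3 and 5 libraries. *Cox4i1*, the common isoform of subunit 4, measured 456, 490, 385 and 596 CPM in *Nrg1GOF* and 641, 576, 592 and 622 CPM in WT (-0.34, SE 0.11, adjusted p = 0.0508). Only *Nrg1GOF* library 4 lay within the WT range. The count of called members in this complex was 12 without *Nrg1GOF* library 4 and 1 without *Nrg1GOF* library 1. It was 2 without *Nrg1GOF* library 2, WT library 1 or WT library 4, and 3 without WT library 3.

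Tissue isoforms of these subunits were compared with their common partners. *Cox7a1* measured 19.6, 22.8, 18.8 and 27.8 CPM in *Nrg1GOF* and 32.7, 25.7, 27.7 and 36.3 CPM in WT (-0.48, SE 0.14, adjusted p = 0.0281), with *Nrg1GOF* library 4 inside the WT range. Its partner *Cox7a2* was at -0.10 (SE 0.10, adjusted p = 0.491). Of the other isoforms of striated muscle, *Cox8b* (-0.48, SE 0.23, adjusted p = 0.156) and *Cox6a2* (-0.35, SE 0.12, adjusted p = 0.0573) did not pass the test, and neither did their partners *Cox8a* (-0.03, SE 0.12) and *Cox6a1* (-0.11, SE 0.11). *Cox4i2*, an isoform of subunit 4 known for its regulation by oxygen, rose from 4.78, 4.31, 4.89 and 5.94 CPM in WT to 6.62, 6.52, 6.46 and 7.75 CPM in *Nrg1GOF* (0.44, SE 0.13, adjusted p = 0.0332). Its groups did not overlap, but its counts were among the lowest of the members (62 to 151 per library), and the call was lost without any 1 of 6 libraries (*Nrg1GOF* 1, 2 and 4, WT 1, 2 and 3), with adjusted p-values from 0.0596 to 0.0771. That of *Cox7a1* was lost without any 1 of 5 libraries (*Nrg1GOF* 1, 2 and 3, WT 1 and 4), with 0.0651 to 0.0808. *Cox6b2*, an isoform known from testis, had 54 to 99 counts per library and was not called (0.32, SE 0.26, adjusted p = 0.402), nor was *Cox6b1* (-0.20, SE 0.11, adjusted p = 0.222).

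Ratios within a library show how an isoform stood to its partner. *Cox7a1* over *Cox7a2* was 0.130, 0.134, 0.140 and 0.150 in *Nrg1GOF* and 0.198, 0.161, 0.161 and 0.192 in WT. *Cox6a2* over *Cox6a1* was 0.455, 0.491, 0.505 and 0.490 against 0.559, 0.544, 0.597 and 0.589. In both pairs each *Nrg1GOF* library, library 4 included, was below each WT library. *Cox4i2* over *Cox4i1* was 0.0145, 0.0133, 0.0168 and 0.0130 against 0.00745, 0.00749, 0.00827 and 0.00955, and *Ndufa4l2* over *Ndufa4* was 0.104, 0.110, 0.116 and 0.100 against 0.0775, 0.0780, 0.0874 and 0.0806, in both cases higher in each *Nrg1GOF* library. *Ndufa4* was placed with complex I by its symbol although its protein is a subunit of complex IV, and *Ndufa4l2* is its paralogue. The ratios of *Cox8b* to *Cox8a* and of *Cox6b2* to *Cox6b1* overlapped between the groups. Among single genes, 30.7% of all those tested had groups that did not overlap in either direction. Markers of cell types moved with the genotype too, and their part in these ratios was not tested.

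**Figure D4:**
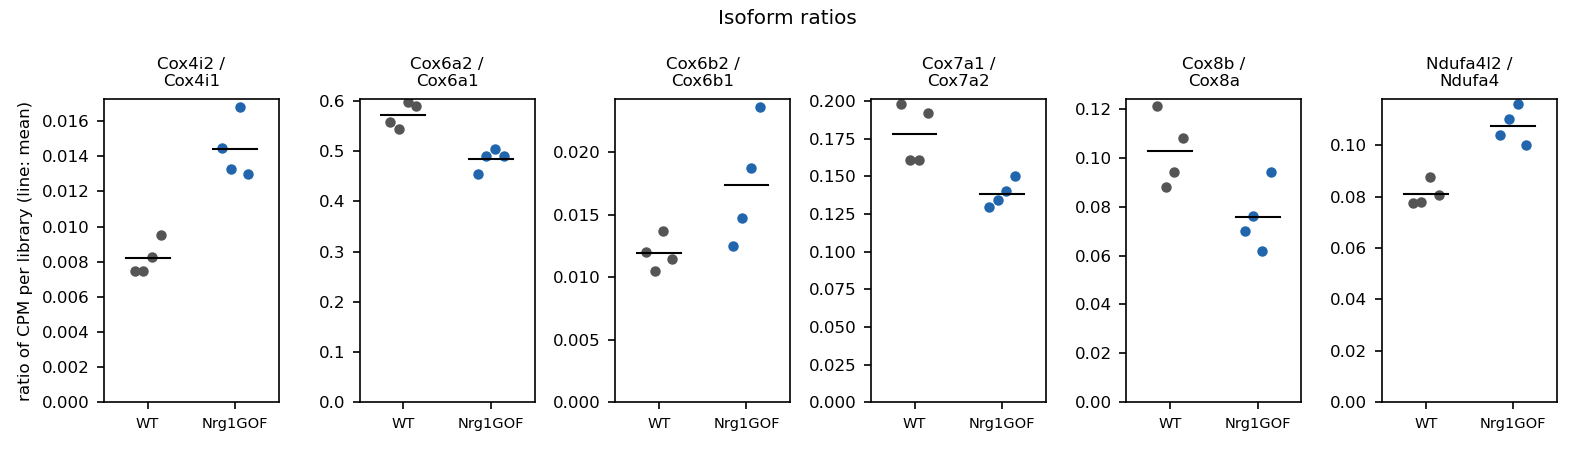
Ratio of the CPM of a tissue isoform to that of its common partner in each library (points), with the group mean (line), for 6 pairs, each axis starting at 0. The groups are apart for *Cox4i2*, *Ndufa4l2* (higher in *Nrg1GOF*), *Cox6a2* and *Cox7a1* (lower), and overlap for *Cox6b2* and *Cox8b*.

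Complex V, the ATP synthase, had 10 of 19 members lower, 8 of them among 17 nuclear ones (nuclear median -0.27). Of all tested genes 12.8% were called lower, and 11.6% without *Nrg1GOF* library 4. By position in the enzyme, 3 of 5 subunits of the catalytic F1 head fell, 3 of 4 of the peripheral stalk that holds it in place, 1 of 3 genes of the c ring that turns with the proton flow, and 0 of 4 small membrane subunits. Among the last group, 2 had an unadjusted p under 0.05 in the edgeR test, and DESeq2, the likelihood ratio test and limma-voom called 0. Without *Nrg1GOF* library 4, 5 of 5, 4 of 4, 2 of 3 and 3 of 4 were called lower in the same order. The remaining called gene is *Atp5s* (-0.34, SE 0.11, adjusted p = 0.0368), which matched by symbol and is not a canonical subunit, and is named here after its values were seen. Its call was lost without any 1 of 6 libraries. *Atp5a1*, the alpha subunit of the head, measured 2234, 2211, 1919 and 2470 CPM in *Nrg1GOF* and 2940, 2873, 2853 and 2901 CPM in WT. It fell by 0.39 (SE 0.07, adjusted p = 0.00347), without overlap, and so did *Atp5c1*, the gamma subunit of the rotor shaft (-0.39, SE 0.07, adjusted p = 0.00190). *Atp5d*, the delta subunit, was at -0.22 (SE 0.11, adjusted p = 0.183), and *Atp5l*, a small membrane subunit, at -0.19 (SE 0.13, adjusted p = 0.331). Without *Nrg1GOF* library 4, both were called lower, with adjusted p-values of 0.0183 and 0.0274.

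The c ring is encoded by 3 genes whose mature protein is the same. *Atp5g3*, the gene with the ERR motif printed above, measured 584, 609, 522 and 727 CPM in *Nrg1GOF* and 845, 785, 812 and 873 CPM in WT and fell by 0.44 (SE 0.09, adjusted p = 0.00607), without overlap. *Atp5g2* had the highest fold change of the complex and was not called (0.19, SE 0.25, adjusted p = 0.627), with 71.6, 140, 106 and 179 CPM against 122, 97.1, 80.1 and 132 CPM. Its own share of the counts with its identical pseudogene copies was 47.1% to 99.1%. With the copies added it measured 133, 168, 139 and 181 CPM against 182, 168, 170 and 183 CPM, and its fold change was -0.19 (SE 0.10, adjusted p = 0.181), so its sign turned with the handling of the copies. With copies added, 32 nuclear members were lower and 1 higher, against 31 and 1 as deposited.

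The nuclear members also differed by the length of their transcript, in classes formed after the values were seen. Of 28 members with transcripts of 360 to 680 bases 2 fell (median -0.22), of 29 with 682 to 1129 bases 9 fell and 1 rose (median -0.26), and of 28 with 1142 to 4715 bases 20 fell (median -0.34). The called lower shares were 7.14%, 31.0% and 71.4%, so the short class was below the 12.8% of all tested genes. Without *Nrg1GOF* library 4, 14, 24 and 24 were called lower, with 11.6% of all tested genes. The short class had 0 called lower without any 1 of the other *Nrg1GOF* libraries, WT library 1 or WT library 4, and the middle class 5 without *Nrg1GOF* library 1, WT library 1 or WT library 4. The median SE was 0.12, 0.10 and 0.08 in the same order, so the short class had both the smallest median difference and the largest median error. From short to long, the medians relative to the WT mean in log2 CPM were 0.13, 0.02 and -0.16 in *Nrg1GOF* library 4 and -0.11, -0.23 and -0.34 in library 2. Library 3 had -0.46, -0.48 and -0.57, and library 1 had -0.38, -0.39 and -0.37, so 3 of the 4 libraries were lower in the longer classes and library 1 was nearly level. Many small accessory subunits are in the short class, so role and length cannot be told apart here. Complex II transcripts have 1142 to 3171 bases, all in the long class, and nuclear complex IV transcripts 360 to 1129 bases, none in it. Complex and length thus cannot be told apart either. With an offset for transcript length and GC content, 50 nuclear members were called, 31 of them among the 32 called without it. That offset also moved the calls over all genes from 2474 higher and 1993 lower to 2228 higher and 2917 lower, and scaling by library total alone gave 2874 higher and 1521 lower.

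**Figure D5:**
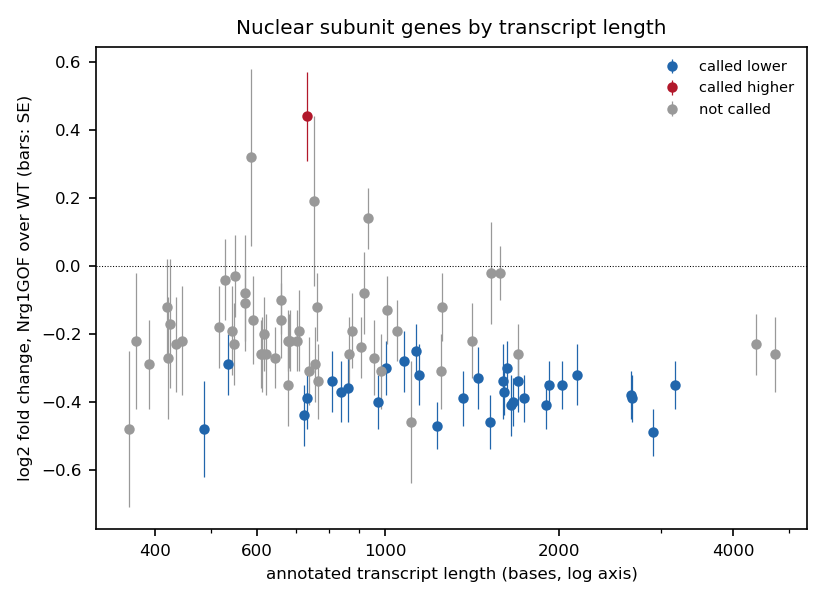
Log2 fold change of the 85 nuclear subunit genes, *Nrg1GOF* over WT (points, bars give the SE), against annotated transcript length on a log axis. Genes called lower are mostly to the right (20 of 28 with 1142 bases or more), and genes near 0 with wide bars are mostly to the left. Among those up to 680 bases 2 of 28 are called, and 14 without *Nrg1GOF* library 4. Of all tested genes 12.8% were called lower.

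The genes that serve the respiratory chain were examined as lists. Apart from 1 gene, every called gene of these lists fell. Of all tested genes 12.8% were called lower, and 14.1% had groups without overlap and with *Nrg1GOF* lower. Of 18 genes of the TCA cycle, which supplies NADH and succinate, and of the pyruvate dehydrogenase complex that feeds it, 17 fell (median log2 fold change -0.38), and in 18 of 18 the groups did not overlap. Without *Pdha1*, *Pdhb*, *Dlat* and *Pdhx*, the genes of that complex alone, 13 of 14 fell. *Suclg2*, a subunit of succinyl-CoA ligase, measured 152, 149, 123 and 146 CPM in *Nrg1GOF* and 205, 206, 208 and 203 CPM in WT (-0.53, SE 0.07, adjusted p = 0.000438). *Dld*, a subunit shared by the dehydrogenases of pyruvate and 2-oxoglutarate, fell by 0.50 (SE 0.06, adjusted p = 0.000290), whereas *Ogdh* (-0.29) and *Pdhx* (-0.28) had the smallest called changes. The 1 gene that did not pass was *Cs*, citrate synthase, at -0.14 (SE 0.05, adjusted p = 0.0928), named after its value was seen.

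Electron and nucleotide carriers had 9 of 11 genes lower (median -0.29), against 12.8% of all tested genes. The count was 7 to 10 when 1 library was left out. With each WT pair summed to 1 sample it was 2, and 5.67% of all genes were called lower. *Etfa*, the alpha subunit of the flavoprotein that brings electrons from fatty acid oxidation, measured 181, 166, 149 and 186 CPM in *Nrg1GOF* and 270, 254, 263 and 270 CPM in WT (-0.63, SE 0.07, adjusted p = 0.000215). *Etfdh*, which passes these electrons to ubiquinone, fell by 0.52 (SE 0.06, adjusted p = 0.000356), and both values lay below the range of the nuclear subunits. *Slc25a5* (an adenine nucleotide carrier, -0.25) and *Vdac3* (a channel of the outer membrane, -0.26) had the smallest called changes. Assembly factors of the complexes had 22 of 52 genes lower and none higher (median -0.25). Among the called genes, *Lrpprc* and *Foxred1*, a complex I assembly factor (-0.44, SE 0.09, adjusted p = 0.00431), had the lowest fold changes, and *Acad9* (-0.26) and *Tmem126b* (-0.25) the smallest called changes. Over the whole list, called or not, fold changes ran from -0.61 to 0.21. The call of *Tmem126b* was lost without any 1 of 6 libraries, with adjusted p-values from 0.0628 to 0.102.

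The lowest fold change of these lists was among the regulators of mitochondrial gene expression. Of 22 genes for transcription, replication and coactivation 12 fell and none rose (median -0.23), against 12.8% of all tested genes called lower. *Ppargc1a*, the coactivator PGC-1 alpha, measured 106, 98.3, 103 and 101 CPM in *Nrg1GOF* and 184, 189, 196 and 191 CPM in WT. The groups were far apart (-0.90, SE 0.05, adjusted p = 3.73e-06), and *Nrg1GOF* library 4 was like the others. *Ppargc1b*, its paralogue, fell by 0.63 (SE 0.09, adjusted p = 0.000835). The factors whose motifs were searched are named for that reason, and except for *Yy1* after their values were seen. Of the 3 ERR genes, *Esrra* (-0.40, SE 0.09, adjusted p = 0.00705) and *Esrrb* (-0.41, SE 0.11, adjusted p = 0.0200) fell, the latter with overlapping groups and a call lost without *Nrg1GOF* library 1 or 2. The third, *Esrrg*, was at 80.7 ± 4.38 CPM in *Nrg1GOF* and 79.3 ± 6.98 CPM in WT (0.02, SE 0.07, adjusted p = 0.840). *Gabpa* fell (-0.29, SE 0.06, adjusted p = 0.00517), whereas *Gabpb1*, which encodes its partner subunit, was not called (-0.03, SE 0.06, adjusted p = 0.725). *Yy1* fell slightly (-0.16, SE 0.05, adjusted p = 0.0384), and *Nrf1* was not called (-0.15, SE 0.05, adjusted p = 0.0632). *Tfam*, which packages and transcribes mitochondrial DNA, fell by 0.20 (SE 0.06, adjusted p = 0.0387). The calls of *Tfam* and *Yy1* were each lost without any 1 of 7 libraries, with adjusted p-values of 0.0580 to 0.0979 and 0.0577 to 0.105. Without *Nrg1GOF* library 2, 7 genes of this list were called.

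Of 19 genes listed for mitochondrial RNA processing and stability, 17 were matched by symbol, and of these 11 fell and 1 rose (median -0.23). Over all tested genes, 12.8% were called lower and 15.9% higher. *Lrpprc*, which stabilises mitochondrial mRNAs and is in the list of assembly factors too, measured 174, 160, 156 and 169 CPM in *Nrg1GOF* and 234, 238, 235 and 237 CPM in WT (-0.52, SE 0.05, adjusted p = 9.55e-05). *Fastkd1*, of the FASTK family of RNA-binding proteins, fell by 0.53 (SE 0.07, adjusted p = 0.000381), while *Mtpap*, the mitochondrial poly(A) polymerase, had a small change (-0.16, SE 0.05, adjusted p = 0.0396) that was lost without any 1 of 7 libraries. *Rexo2*, an exonuclease for short RNA, was the 1 gene that rose (0.29, SE 0.09, adjusted p = 0.0303), and its call was lost without *Nrg1GOF* library 2, WT library 1 or WT library 3. The count of 12 called genes in this list was 5 without *Nrg1GOF* library 2 and 7 without WT library 1, 3 or 4. Mitochondrial ribosomal proteins, which translate the 13 mitochondrial members, had 33 of 78 genes lower and none higher (median -0.20), and 21 were called without *Nrg1GOF* library 2. *Mrpl47* (-0.47, SE 0.05, adjusted p = 0.000158) and *Mrps35* (-0.44, SE 0.08, adjusted p = 0.00266) had the lowest fold changes among the called genes of this list, and *Mrpl24* and *Mrpl50* (both -0.21) the smallest called ones, each lost without any 1 of 5 libraries. The median over the ribosomal proteins was therefore nearer to 0 than the medians of either class of subunits.

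Of the 102 genes that matched by symbol, 4 failed the filter on low counts. *Cox8c* had no counts in any library, which allows up to 3 counts per library, and *Cox7b2*, *Ndufs6b* and *Cox6c2* had at most 3, 2 and 5 counts. *Ndufs6b* and *Cox6c2* are annotated as processed pseudogenes, as are the members *Ndufa11b* and *Ndufb4c*, which are named here for their annotation after their values were seen. Just above the filter stood *Ndufa11b*, *Cox6b2* and *Cox4i2*, with lowest counts of 37, 54 and 62.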

How the data were processed

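The authors deposited RSEM (1.3.1) expected counts per gene on GRCm38, with Ensembl release 91, per the labels. Where a read matches more than 1 gene, RSEM divides it by estimated abundance. Cutadapt is named among the tools. The aligner and strand setting are not given in the sources used here. Libraries were directional poly(A) RNA, single reads of 60 bases. Expected counts were rounded, filtered with filterByExpr, scaled by TMM and tested with the quasi-likelihood F-test of edgeR (4.0.16, R 4.3.3) with genotype as the sole term, two-sided, adjusted by Benjamini-Hochberg over all tested genes and called at 0.05. The study's methods also name edgeR. SE was computed from the fold change and F. Coordinates and transcript lengths are from GENCODE M21 (GRCm38), a later release than that used for counting. Copies are pseudogenes with at least 95% identity over at least 80% of their length to a member, found with BLAST.

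Members and lists were chosen with earlier results of these data known, and roles and length classes after values were seen. Named were all mitochondrial members, the 3 highest and 3 lowest nuclear fold changes per complex, the isoform pairs, the 2 highest and 2 lowest called genes per list, *Nrg1* and members failing the filter. Other genes named in the text, among them pseudogene copies and markers, are outside this rule and outside the counts of named genes under alternatives. The test was checked on simulated counts, where it recovered 148 of 200 changed genes and made 13 false calls. Alternatives included DESeq2 (1.42.0), limma-voom (limma 3.58.1), other scalings and filters, the replicate block, WT pairs, a length and GC offset, thinning, added copies and leaving out each library. Library totals were 8038641 to 26786039 counts. The floor of 3 counts covers counting error only, since PCR duplicates could not be told from separate molecules.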

Additional observations from a re-analysis of the deposited data

Results flagged for a closer look

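In 168 groups of 4 libraries that were examined for a library lying apart from the rest, 4 values did so, fewer than the 8.40 that chance gives at about 1 in 20. *Cox4i2* was 7.75 CPM in *Nrg1GOF* library 4 and 6.46 to 6.62 CPM in the other *Nrg1GOF* libraries. *Cox8a* was 195 CPM in WT library 3 and 214 to 218 CPM in the other WT libraries. *Fastkd1* was 36.6 CPM in *Nrg1GOF* library 2 and 38.5 to 38.8 CPM in the others of its group. The total of *Nrg1GOF* library 4 was 8038641 counts, against 20578081 to 22547833 in the others. With libraries thinned to equal depth, the log2 ratio of group means was -0.32 for the nuclear and -0.52 for the mitochondrial sum, as without thinning.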

How the results depend on the processing

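Across the alternatives, 668 of 752 values for groups of genes stayed within the limits set for no change and 84 moved. For 70 named genes, 1556 of 1820 fold changes kept direction and side of the threshold, 189 lost the call, 53 gained it and 22 changed sign. Group medians stayed negative in each alternative.

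The replicate numbers are in the sample titles, and same-numbered libraries correlated in their deviations at 0.129, 0.0492, 0.199 and 0.0668, so the numbers were not taken as pairs. With the replicate number as a block, 46 nuclear (the 32 among them) and 9 mitochondrial members were called, 10 in complex IV and 5 among the isoforms. An offset for transcript length and GC content gave 50 nuclear members, 11 in complex IV and 6 isoforms, and with the replicate block added 63, 14 and 8, with 30 in complex I. DESeq2 called 10 in complex IV and 5 isoforms, the likelihood ratio test of edgeR 10 and 4, and limma-voom 11 and 5. No tool called a higher gene among the mitochondrial members, assembly factors, transcription genes or ribosomal proteins, of which 0, 1, 0 and 1 were higher at an unadjusted p under 0.05 in edgeR. Thinning to equal depth left 6 RNA processing genes, and scaling by library total a median of -0.18 for that list.

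At an adjusted p under 0.01, 17 nuclear and 2 mitochondrial members were called, with 7, 0 and 5 in complexes I, IV and V, 0 isoforms, 14 assembly factors, 5 carriers, 6 transcription genes, 4 RNA processing genes and 13 ribosomal proteins. With each WT pair summed to 1 sample, the counts were 14 nuclear, 4 mitochondrial, 7, 2, 1 and 5 in complexes I, III, IV and V, 0 isoforms, 12 assembly factors, 2 carriers, 6 transcription genes, 2 RNA processing genes and 9 ribosomal proteins. This leaves 6 samples. The share of all genes called lower was smaller too, at 12.8% as reported, 6.62% at the stricter threshold and 5.67% with WT pairs summed, and leaving out 1 library gave 8.65% to 11.9%. Against WT libraries 1 and 2 alone, 17 nuclear and 4 mitochondrial members were called, 7, 2 and 1 in complexes I, II and IV, 1 isoform, 13 assembly factors, 3 carriers, 5 transcription genes, 2 RNA processing genes and 15 ribosomal proteins. Against WT libraries 3 and 4 alone the counts were 10 and 3 in complexes I and IV, 1 isoform, 5 carriers, 7 RNA processing genes and 21 ribosomal proteins.

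Leaving out 1 library at a time gave 22 to 62 nuclear and 5 to 10 mitochondrial members, 9 to 30 in complex I, 3 to 4 in II, 5 to 7 in III, 1 to 12 in IV and 8 to 15 in V. The isoforms ranged from 0 to 6, assembly factors from 20 to 22, carriers from 7 to 10, TCA cycle and pyruvate dehydrogenase genes from 17 to 18, transcription genes from 7 to 11, RNA processing genes from 5 to 11 and ribosomal proteins from 21 to 38. Among named genes, sign changes were limited to 5 that were not called. *Atp5g2* went to -0.19 with copies added. *Cox8a*, *Ndufv3* and *Uqcrq* went to 0.02 and *Ndufa7* to 0.00 with library totals. *Cox8a* was 0.02 and *Uqcrq* 0.01 against WT libraries 3 and 4, *Ndufv3* 0.00 against WT libraries 1 and 2, and *Ndufa7* and *Uqcrq* 0.01 after thinning. Without 1 library, *Atp5g2* ranged from -0.02 to 0.38, *Cox8a* from -0.13 to 0.06, *Ndufa7* from -0.16 to 0.04, *Ndufv3* from -0.07 to 0.03 and *Uqcrq* from -0.17 to 0.07. The cause of these shifts was not tested.

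Depth limits low genes, *Nrg1GOF* library 4 most of all. The single reads of 60 bases cannot separate identical copies, and 4 libraries per group limit the precision of each fold change.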
